A study of Zea mays with 48 samples.

Results

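Bx10 (Zm00001d029353), Bx11 (Zm00001d029356), Bx12 (Zm00001d029359) and Bx14 (Zm00001d004921) encode O-methyltransferases of the maize benzoxazinoid pathway. The 4 genes were chosen for this shared enzymatic step, by identifier, and all 4 were among the 46272 gene features counted. They were measured in leaves of the inbred lines B73, B96 and B75 and of F1 hybrids, with and without feeding by the two-spotted spider mite Tetranychus urticae. All 4 were near 0 counts in leaves without mites. With mites, Bx10, Bx11 and Bx12 rose in every line and F1, whereas Bx14 reached a high level only in B96 and its F1 among the 6 infested groups.

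Benzoxazinoids are defence compounds of grasses that are stored as sugar conjugates and released by glucosidases when tissue is damaged. DIMBOA-glucoside is a main stored form in young maize leaves. The 4 enzymes add a methyl group to it and so make HDMBOA-glucoside, whose released form is less stable and which is known to accumulate after insect feeding. BX14 also methylates a related dimethoxy compound. Bx10, Bx11 and Bx12 lie near each other and are close in sequence, so reads that fit more than one of them may have been left uncounted, and their separate levels are uncertain to that extent.

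The study comprised 48 libraries in 12 groups of 4. In one experiment B73 (replicates 1 to 4), B96 and the B73xB96 F1 were sampled, and in the other B73 (replicates 5 to 8), B75 and the B73xB75 F1. Each line or F1 had a group with 200 adult female mites held for 24 hours on a section of leaf 4 of plants 22 days old, and a group that carried the wax barrier but no mites. The libraries are called biological replicates, the number of plants behind each is not stated, and p-values therefore measure the spread between these samples. B73 is the line whose genome is the maize reference. B96 and B75 are inbreds known for mite resistance. Reads of every line were placed on the B73 genome, and any loss of reads that differ from it would lower the values of B96, B75 and the hybrids. The size of such a loss was not tested. Leaf tissue was not separated into cell types, so more RNA per cell and more expressing cells cannot be told apart.

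Control libraries held 12.5 to 20.9 M gene counts (median 16.4 M) and infested libraries 9.98 to 16.6 M (median 12.4 M). Reads with more than one alignment made up 8.20 to 16.9% in infested B73, 13.7 to 15.6% in infested B96 and 10.2 to 13.7% in infested B75, and their part in the values of the 4 genes was not tested. Levels are given as CPM, counts per M counts of the library after TMM scaling, with the mean ± SD of 4 libraries. Because CPM does not account for gene length, levels are compared between groups and not between genes. Fitted differences are log2 fold changes ± SE from edgeR, and a gene is said to have risen, fallen or differed at a Benjamini-Hochberg adjusted p under 0.05 over all genes of the fit.

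In leaves without mites the 4 genes were at the limit of detection. No control library held more than 17 counts of any of them. Bx10 had 0 counts in all 4 control libraries of B96 and all 4 of B75. In the B96 experiment it had 1 count over the 4 B73 controls and 7 over the 4 F1 controls. Bx11 had 19 counts over the B73 group of the B96 experiment, 11 over B96 and 12 over the B73xB96 F1, and 40 in the B73 group of the B75 experiment, 15 in B75 and 12 in the B73xB75 F1. Bx12 had between 1 count, in B96, and 14 counts, in B73 of the B75 experiment. Bx14 had 0 counts in the 8 B73 controls and in the B73xB75 F1 controls. It had 1 count in B75 and 3 in the B73xB96 F1. B96 held 18 counts of Bx14, of which 16 came from replicate 2 (1.05 CPM).

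**Figure D1:**
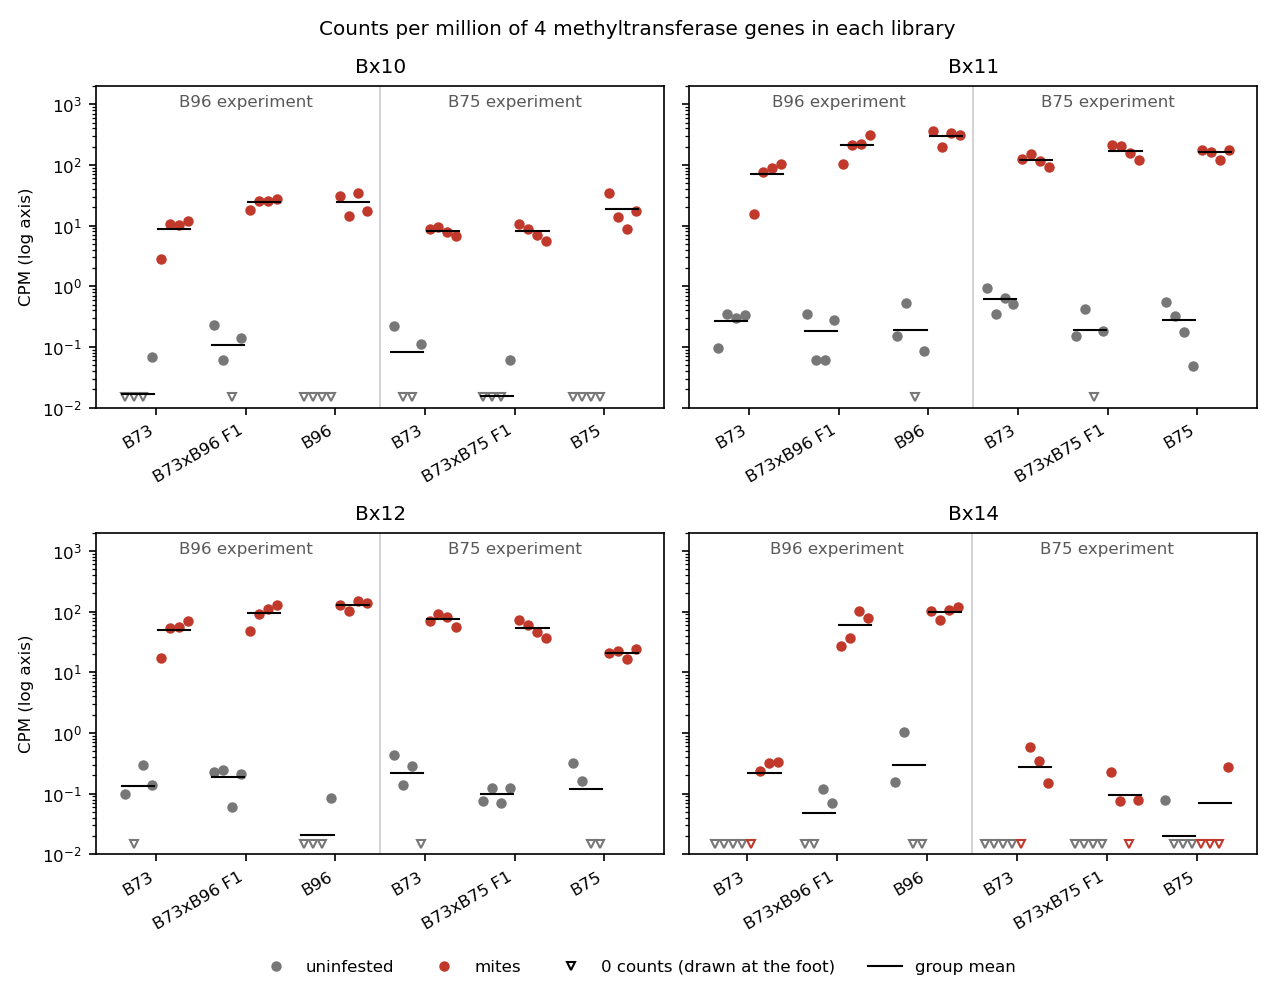
CPM (log axis) of Bx10, Bx11, Bx12 and Bx14 in each of the 48 libraries by line and experiment, with grey points for leaves without mites, red points for infested leaves, triangles at the foot for libraries with 0 counts and black bars for group means. No infested library overlaps a control library for Bx10, Bx11 or Bx12, and the share of all genes without such overlap was not determined. Bx14 exceeds 27 CPM in the infested B96 and B73xB96 F1 libraries while no other infested library reaches 0.6 CPM.

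The response to mites was among the largest in the leaf, with Bx10, Bx11 and Bx12 between ranks 1 and 53 of all tested genes in each line and F1. Bx11 rose from 0.270 ± 0.117 to 70.3 ± 38 CPM in B73 of the B96 experiment (n = 4). It rose from 0.190 ± 0.230 to 302 ± 74.7 CPM in B96 and from 0.186 ± 0.148 to 214 ± 86.8 CPM in the B73xB96 F1. Within the B75 experiment it rose from 0.607 ± 0.245 to 122 ± 24.5 CPM in B73, from 0.277 ± 0.217 to 161 ± 26 CPM in B75 and from 0.191 ± 0.177 to 173 ± 44.3 CPM in the B73xB75 F1. The ratio of summed counts, scaled to depth, was 261 in B73 of the B96 experiment, with a 95% counting interval of 167 to 434. It was 1452 (811 to 2909) in B96 and 1138 (651 to 2203) in the F1. The same ratio in the B75 experiment was 198 (145 to 277) for B73, 663 (402 to 1185) for B75 and 869 (497 to 1681) for the F1. These intervals cover counting error only, since PCR copies are not independent molecules.

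Bx12 went from 0.132 ± 0.123 to 49.4 ± 22.8 CPM in B73 of the B96 experiment and from 0.0211 ± 0.0422 to 130 ± 20.5 CPM in B96. The B96 controls held a single count, so their ratio of 6812 has a counting interval of 1222 to 269102. The B73xB96 F1 reached 94.9 ± 34.7 CPM, 507 times its control (290 to 982). Bx12 in the B75 experiment reached 74.5 ± 15.5 CPM in B73, 21 ± 3.41 CPM in B75 and 53.6 ± 15.7 CPM in the F1, with ratios to their controls of 344 (205 to 630), 218 (100.03 to 596) and 539 (247 to 1470). Bx10 was at least 426-fold higher with mites in B96 and at least 369-fold higher in B75, against a floor of 3 counts over the 4 control libraries. In the B73xB96 F1 Bx10 was 222 times its control (108 to 554) and in B73 of the B75 experiment 88.8 times (40.5 to 243). The other groups had 1 control count each, with ratios of 633 (113 to 25067) in B73 of the B96 experiment and 482 (86.1 to 19090) in the B73xB75 F1.

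The edgeR fit placed these genes near the top of the genome-wide response. Bx10, Bx11 and Bx12 rose in all 6 responses. Bx14 rose in B96 and in the B73xB96 F1. The share of all tested genes that rose was 16.3% for B73, 24.8% for B96 and 20.3% for the F1 of the B96 experiment, and 18.3% for B73, 21.7% for B75 and 22.4% for the F1 of the B75 experiment. In B96, Bx12 had the highest fitted log2 fold change of 22569 tested genes (12.22 ± 0.67), Bx10 the third highest (11.47 ± 0.83) and Bx11 the fourth highest (10.46 ± 0.67, adjusted p = 9.8e-11 by edgeR). In B73 of that experiment Bx10 (8.64 ± 0.75) ranked 7, Bx12 (8.41 ± 0.53) ranked 11 and Bx11 (8.02 ± 0.62, adjusted p = 7.1e-09 by edgeR) ranked 16. Bx10 ranked 3 of 22572 in B75 (11.07 ± 0.77) and 51 in B73 of that experiment (6.35 ± 0.57). Such fitted values rest on control groups with few or no counts, depend on the prior count and are not bounds. Their SE was taken from the test statistic and does not measure the error that near-empty control groups bring.

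Single control libraries carried many of the few control counts, and leaving one out moved a fitted fold change by more than 1.5 times. In the B96 experiment the fitted log2 response of Bx10 in B73 became 10.03 without B73 control replicate 4, and that of Bx12 in B73 9.19 without control replicate 3. In B96 the response of Bx11 became 11.75 without control replicate 2, that of Bx12 13.92 without control replicate 4 and that of Bx14 10.68 without control replicate 2. In the B73xB96 F1 the response of Bx10 became 8.39 without control replicate 1 and that of Bx14 11.03 without control replicate 3. For B73 of the B75 experiment the values without control replicate 5 were 7.31 for Bx10 and 9.06 for Bx12. Bx12 in B75 became 8.74 without control replicate 1, Bx10 in the F1 9.86 without control replicate 4 and Bx11 in the F1 10.46 without control replicate 2. Each of these genes still rose, with a larger fitted response than before.

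Among infested leaves of the B96 experiment, all 4 genes were higher in B96 than in B73, and no infested B96 library overlapped an infested B73 library for any of them. Between these groups 57.8% of all tested genes differed, and 28.2% of all tested genes were higher in B96. These are shares of edgeR calls, and the share of all genes without overlap was not determined for this or any other comparison. Bx11 stood at 15.7, 75.3, 88.5 and 102 CPM in the 4 B73 libraries and at 366, 196, 339 and 307 CPM in B96. The mean in B96 was 4.29 times that of B73, with a log2 fold change of 2.10 ± 0.40 (adjusted p = 8.9e-05 by edgeR). Bx12 was at 17.4, 52.9, 56.1 and 71.3 CPM in B73 and at 127, 103, 152 and 139 CPM in B96. Its mean in B96 was 2.63 times that of B73, a log2 fold change of 1.40 ± 0.30 (adjusted p = 4.1e-04 by edgeR).

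Bx10 was likewise higher in B96. B73 libraries held 2.83, 10.7, 10.2 and 12 CPM and B96 libraries 30.3, 14.7, 34.1 and 17.7 CPM. The ratio of means was 2.71 and the log2 fold change 1.44 ± 0.33 (adjusted p = 9.9e-04 by edgeR). B73 infested replicate 1 was the lowest B73 library for each of Bx10, Bx11 and Bx12. Without it the log2 fold changes between B96 and B73 were 1.14 for Bx10, 1.77 for Bx11 and 1.11 for Bx12, each still past the threshold by edgeR.

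The gap between B96 and B73 was widest for Bx14. Infested B73 libraries of the B96 experiment held 0, 0.235, 0.317 and 0.337 CPM, 11 counts in all. Infested B96 libraries held 102, 73.7, 106 and 120 CPM, and infested F1 libraries 27.3, 36.3, 101 and 79.7 CPM. The B96 mean of 100 ± 19.5 CPM was 452 times the B73 mean, with a log2 fold change of 8.82 ± 0.63 (adjusted p = 2.7e-10 by edgeR). Without B73 infested replicate 1, which had no count of Bx14, the log2 fold change was 8.37. The F1 mean of 61.1 ± 35.1 CPM was 275 times that of B73 (log2 fold change 8.11 ± 0.63, adjusted p = 5.1e-09 by edgeR).

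With mites Bx14 was 292 times its control level in B96 (counting interval 185 to 494) and 1331 times in the F1 (455 to 6455), which had 3 control counts. In B73 the 11 counts with mites, against 0 in the controls, were 5.17 times a floor of 3 counts over the control group. That ratio leaves out the counting error of the 11 counts. The edgeR response of Bx14 in B73 did not pass (log2 fold change 4.70, adjusted p = 0.15 by edgeR), while DESeq2 called it at 4.40 (adjusted p = 0.0101). The difference of the line in leaves without mites passed by edgeR for Bx14 (log2 5.33, adjusted p = 0.0328), as 1 of the 4 genes, where 64.4% of all genes differed. For Bx10, Bx11 and Bx12 these control groups held 0 to 19 counts each, too few to show that the lines are alike. The call of Bx14 was lost without B96 control replicate 2 (2.85, adjusted p = 0.351 by edgeR). It was also lost without any single B73 control, at adjusted p from 0.0505 to 0.0592 by edgeR.

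In the B75 experiment Bx14 stayed near 0 in infested leaves. The infested B73 libraries held 0, 0.587, 0.35 and 0.148 CPM, 15 counts in all. Infested B75 libraries held 4 counts, all in replicate 4 (0.280 CPM), and the infested B73xB75 F1 held 5. Bx14 therefore fell below the filter on low counts there and was not tested. In a fit without that filter, its response had a log2 value of 5.09 in B73 (adjusted p = 0.015 by edgeR), 1.61 in B75 (adjusted p = 0.494) and 3.62 in the F1 (adjusted p = 0.134). In B75 the ratio to the control was 4.30, with a counting interval of 0.426 to 212.

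**Figure D2:**
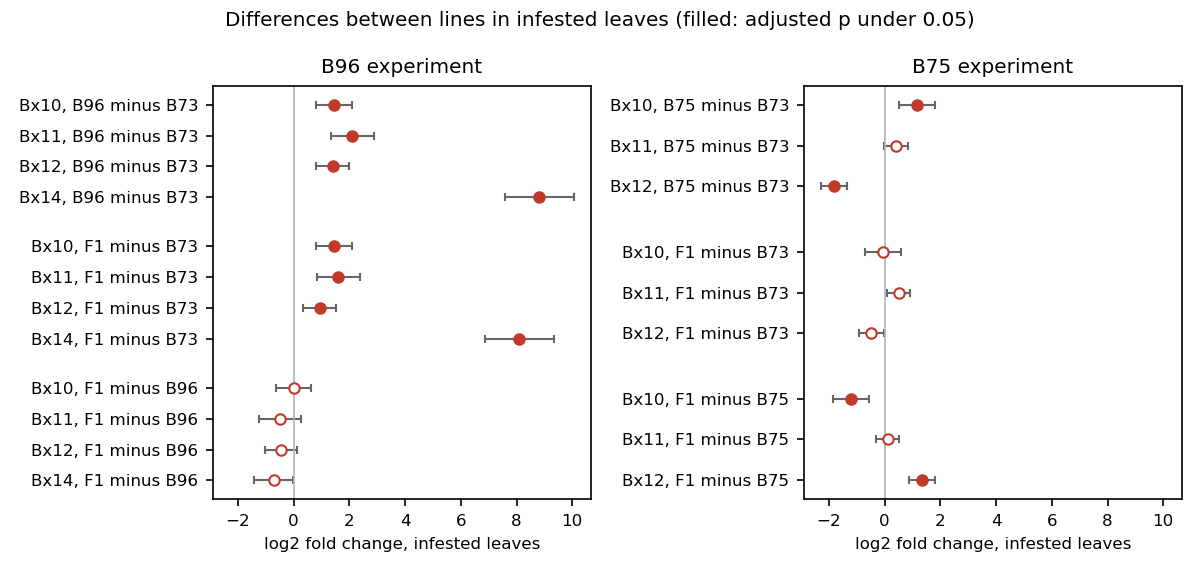
Log2 fold changes between lines in infested leaves of the B96 experiment (left) and the B75 experiment (right), with bars for 95% normal intervals and filled points for an adjusted p under 0.05 by edgeR. All 4 genes lie to the right for B96 minus B73, whereas Bx12 lies to the left (-1.82) and Bx10 to the right (1.16) for B75 minus B73.

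In infested leaves Bx12 was lower and Bx10 higher in B75 than in B73, and Bx11 did not pass the test. Infested B75 and B73 leaves differed for 53.5% of all tested genes, with 27.6% higher and 25.8% lower in B75. Bx12 was lower in B75, at 20.7, 22.8, 16.4 and 24.3 CPM against 69.1, 90.7, 82.5 and 55.5 CPM in B73, and the groups did not overlap. The B75 mean was 0.283 times that of B73 (log2 fold change -1.82 ± 0.24, adjusted p = 7.6e-07 by edgeR). Bx11 was at 179, 165, 123 and 176 CPM in B75 and at 124, 152, 117 and 93.0 CPM in B73, and the groups overlapped. Its log2 difference of 0.40 ± 0.21 did not pass (adjusted p = 0.121 by edgeR), with an interval of -0.02 to 0.82.

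Bx10 was higher in B75 than in B73 by 1.16 ± 0.33 on the log2 scale (adjusted p = 0.00505 by edgeR). The B75 libraries held 34.4, 13.6, 8.94 and 17.3 CPM and the B73 libraries 8.92, 9.47, 7.79 and 6.81 CPM. The groups overlapped at their edges, and replicate 1 of B75 was the highest library. Without that library the difference was 0.65 and no longer passed (adjusted p = 0.0625 by edgeR). In leaves without mites, 0 of the 3 tested genes differed between B75 and B73 by edgeR, where 54.6% of all genes did. Each of these control groups held 0 to 40 counts of a gene, too few to show that the lines are alike. Of the 3 genes, 1 had an unadjusted p under 0.05, and DESeq2 called Bx10 and Bx11 lower in B75.

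The ratio of counts within a library does not depend on its depth and separated B75 more sharply. In infested leaves the counts of Bx12 were 0.613 ± 0.064 of those of Bx11 in B73 of the B75 experiment, with single libraries from 0.555 to 0.705. The ratio was 0.131 ± 0.010 in B75, from 0.116 to 0.138. The F1 lay between them at 0.310 ± 0.027, from 0.285 to 0.346, and none of the 3 groups overlapped another. In the B96 experiment the ratio was 0.785 ± 0.216 in B73, 0.444 ± 0.075 in B96 and 0.449 ± 0.037 in the F1. The B73 libraries ranged from 0.634 to 1.11, the highest being replicate 1, and lay above all B96 libraries, which ranged from 0.347 to 0.529.

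Bx10 relative to Bx11 moved less evenly. The ratio was 0.139 ± 0.030 in B73, 0.0791 ± 0.018 in B96 and 0.124 ± 0.038 in the F1 of the B96 experiment. The B75 experiment gave 0.0684 ± 0.0051 for B73, 0.111 ± 0.055 for B75 and 0.0462 ± 0.0031 for the hybrid. The B75 libraries ranged from 0.0729 to 0.193. B73 itself ranged from 0.116 to 0.180 in the B96 experiment and from 0.0621 to 0.0732 in the B75 experiment. These B73 groups did not overlap, so this ratio also differed between the experiments within 1 line. Bx14 relative to Bx11 was 0.340 ± 0.053 in B96 and 0.285 ± 0.119 in its F1. These ratios are read between groups for 1 pair of genes, since gene lengths were not used, and they were not tested.

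**Figure D3:**
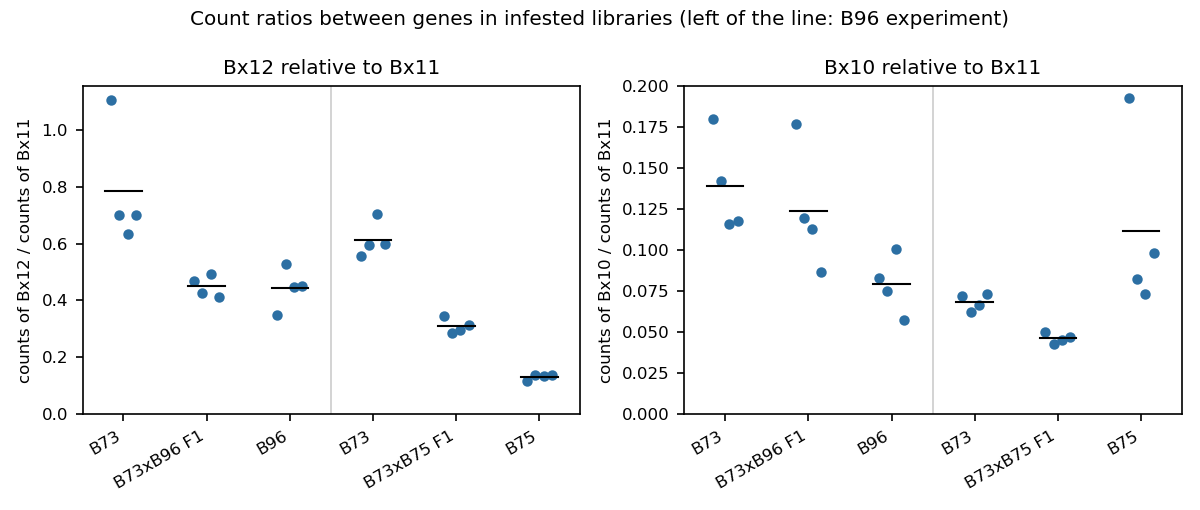
Counts of Bx12 (left) and Bx10 (right) divided by counts of Bx11 in each infested library, by line, with black bars for group means and a grey line between the B96 and the B75 experiment. The 4 B75 libraries have Bx12 to Bx11 ratios from 0.116 to 0.138, below all libraries of the B73xB75 F1 and of B73.

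The F1 hybrids addressed how the levels are inherited. In the B96 experiment all 4 genes were higher in the infested F1 than in infested B73, where 18.6% of all genes were higher. Bx10 was at 18.2, 25.9, 25.3 and 27.2 CPM in the F1, above every B73 library (log2 difference 1.44 ± 0.33, adjusted p = 0.0023 by edgeR). Bx11 was at 103, 216, 224 and 314 CPM, with the lowest F1 library close to the highest B73 library (1.61 ± 0.39, adjusted p = 0.0027 by edgeR). Bx12 was at 48.0, 92.4, 110 and 129 CPM and overlapped B73. Its difference of 0.94 ± 0.30 (adjusted p = 0.0183 by edgeR) no longer passed without F1 infested replicate 3 (0.86, adjusted p = 0.0513) or replicate 4 (0.76, adjusted p = 0.0692), nor in a fit of only the groups compared (0.98, adjusted p = 0.0989).

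Against B96, 0 of the 4 genes differed in the infested F1 by edgeR, where 43.1% of all genes did, with 0 at an unadjusted p under 0.05 and 0 by DESeq2. The log2 differences of F1 minus B96 were -0.00 for Bx10 with an interval of -0.63 to 0.62, -0.49 for Bx11 (-1.24 to 0.25), -0.46 for Bx12 (-1.04 to 0.13) and -0.72 for Bx14 (-1.42 to -0.01). The normal interval of Bx14 excludes 0 although its unadjusted p was 0.0603 by edgeR. The difference of Bx14 passed without F1 infested replicate 3, at -1.07 (adjusted p = 0.0294 by edgeR). With a replicate block in the fit, Bx12 (-0.57, adjusted p = 0.0405 by edgeR) and Bx14 (-0.88, adjusted p = 0.0298 by edgeR) were lower in the F1. The order of the infested means was thus B73, F1, B96 for Bx11, Bx12 and Bx14, and the F1 and B96 libraries overlapped for each of these genes. Bx10 had means of 24.1 ± 4.06 CPM in the F1 and 24.2 ± 9.49 CPM in B96.

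In the B75 experiment 0 of 3 genes differed between the infested F1 and B73 by edgeR, where 25.8% of all genes did. Of these, 2 had an unadjusted p under 0.05 and DESeq2 called 0. The log2 differences of F1 minus B73 were -0.05 for Bx10 (-0.69 to 0.60), 0.51 for Bx11 (0.08 to 0.93) and -0.47 for Bx12 (-0.92 to -0.03). Bx11 passed without F1 infested replicate 4 (0.64, adjusted p = 0.0356 by edgeR) and Bx12 without F1 infested replicate 1 (-0.67, adjusted p = 0.047 by edgeR). Against B75, where 34.1% of all genes differed, Bx12 was higher in the F1, with libraries at 72.8, 59.2, 45.5 and 37.1 CPM and no overlap (1.35 ± 0.23, adjusted p = 1.1e-04 by edgeR). Bx10 was lower in the F1 than in B75, at 10.6, 8.89, 7.00 and 5.53 CPM (-1.21 ± 0.33, adjusted p = 0.0071 by edgeR), but not without B75 infested replicate 1 (-0.71, adjusted p = 0.0668). Bx11 had F1 libraries at 210, 207, 155 and 118 CPM and a log2 difference from B75 of 0.10 (-0.31 to 0.52).

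On the log2 scale the F1 departed from the mean of its parents (mid-parent) for 1 of 4 genes in infested leaves of the B96 experiment. The share of all genes that departed was 23.4%, near that of the 4 genes. Bx14 was the gene that departed, above the mid-parent (3.69 ± 0.42, adjusted p = 1.4e-06 by edgeR). Its log2 mid-parent lies far below its linear one because B73 is near 0. On the linear scale the F1 of Bx14 was 1.21 ± 0.70 times the mid-parent, with 2 of 4 libraries above it. Bx10 in the B73xB96 F1 was 1.46 ± 0.25 times the linear mid-parent, with 4 of 4 libraries above it, and its log2 difference of 0.72 did not pass (adjusted p = 0.0638 by edgeR). It did pass without B73 infested replicate 4 (0.81), B96 infested replicate 3 (0.82) or F1 infested replicate 1 (0.83), at adjusted p from 0.042 to 0.0456 by edgeR. Bx10 in the B73xB75 F1 was 0.597 ± 0.164 times the linear mid-parent, with 0 of 4 libraries above it, and the log2 difference of -0.63 did not pass (adjusted p = 0.179 by edgeR). Bx11 was 1.15 ± 0.47 and 1.22 ± 0.31 times and Bx12 1.06 ± 0.39 and 1.12 ± 0.33 times the linear mid-parent in the 2 hybrids, and neither passed on the log2 scale. In the B75 experiment 0 of 3 genes departed from the log2 mid-parent by edgeR, where 12.8% of all genes did, with 2 at an unadjusted p under 0.05 and 0 by DESeq2.

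**Figure D4:**
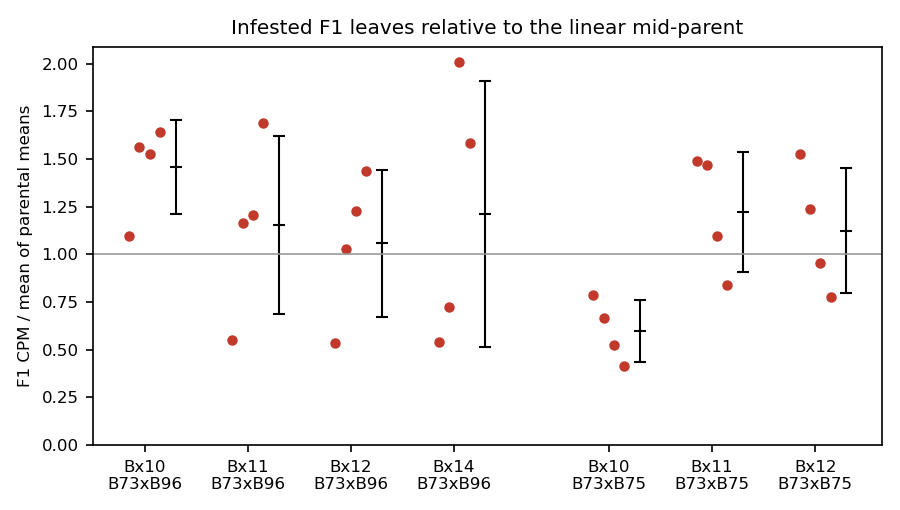
CPM in each infested F1 library divided by the mean of the 2 parental means, for each gene and hybrid, with the mean and SD of 4 libraries beside the points and a grey line at 1. All 4 libraries of Bx10 lie above 1 in the B73xB96 F1 and below 1 in the B73xB75 F1.

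The size of the mite response itself could be compared only roughly, because of the few control counts. Between B96 and B73 it differed for 0 of 4 genes by edgeR, where 22% of all genes did, with 1 at an unadjusted p under 0.05. For Bx14 the test could not decide, since the B73 controls held 0 counts. Its log2 difference of responses was 3.49 with an interval of -42.3 to 49.2. The log2 difference of responses was 2.83 ± 3.11 for Bx10, 2.44 ± 1.24 for Bx11 and 3.81 ± 1.77 for Bx12 (adjusted p = 0.567, 0.166 and 0.128 by edgeR). Single control libraries moved these values, to 1.44 for Bx10 without B73 control replicate 4, to 3.72 for Bx11 without B96 control replicate 2, and for Bx12 to 5.53 without B96 control replicate 4 and 3.02 without B73 control replicate 3. None of them passed by edgeR without any 1 library. DESeq2 called both larger in B96 (Bx11 adjusted p = 0.0348, Bx12 adjusted p = 0.0088). Between B75 and B73 the response differed for 0 of 3 genes by edgeR, where 9.2% of all genes did, with 2 at an unadjusted p under 0.05. The log2 difference was 4.72 ± 1.86 for Bx10 (adjusted p = 0.118 by edgeR), 1.71 ± 0.62 for Bx11 (adjusted p = 0.0853 by edgeR) and -0.73 ± 1.16 for Bx12. DESeq2 called Bx10 (adjusted p = 0.0207) and Bx11 (adjusted p = 0.0223) larger in B75. Without B75 control replicate 1 the Bx11 value was 2.28 (adjusted p = 0.0498 by edgeR) and the Bx12 value turned to 0.38. Without B73 control replicate 5 the Bx10 value was 3.74.

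The F1 response did not differ from that of either parent for any tested member by edgeR, in either experiment. For Bx14 the test against B73 could not decide, since the B73 controls held 0 counts. Its log2 difference was 5.42 with an interval of -143 to 154. The share of all genes that differed was 0.151% from B73 and 8.96% from B96 in the B96 experiment, and 0.877% from B73 and 2.46% from B75 in the B75 experiment. At an unadjusted p under 0.05 there were 0 and 0 of 4 genes in the B96 experiment and 1 and 0 of 3 in the B75 experiment. DESeq2 called Bx12 lower in the F1 than in B96 (adjusted p = 0.0409) and Bx11 higher in the B73xB75 F1 than in B73 (adjusted p = 0.0149).

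B73 was measured in both experiments. Infested means in the B96 and the B75 experiment were 8.94 ± 4.14 and 8.25 ± 1.18 CPM for Bx10, 70.3 ± 38 and 122 ± 24.5 CPM for Bx11, and 49.4 ± 22.8 and 74.5 ± 15.5 CPM for Bx12. The groups overlapped in CPM for all 3 genes, but not in the ratio of Bx10 to Bx11 (0.139 ± 0.030 and 0.0684 ± 0.0051). The log2 difference of the B75 from the B96 experiment was -0.24 for Bx10 with an interval of -0.94 to 0.46, 0.66 for Bx11 (-0.06 to 1.38) and 0.46 for Bx12 (-0.19 to 1.12). By edgeR 0 of 3 genes differed in the 16 B73 libraries, where 0.347% of all genes did, with 0 at an unadjusted p under 0.05 and 0 by DESeq2. The response to mites differed for 0 of 3 as well, and for 0% of all genes, with the same counts of 0 at an unadjusted p and by DESeq2. Experiment and set of plants cannot be told apart.

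Across the 48 libraries Bx10, Bx11 and Bx12 followed each other closely. Pearson correlations of log2 CPM were 0.984 between Bx10 and Bx11, 0.982 between Bx11 and Bx12 and 0.976 between Bx10 and Bx12. Bx14 had correlations of 0.583 to 0.618 with these 3 genes. The libraries share the contrast of infested and control leaves, which sets most of such a value, so it is given as a description. Among 20343 features, the 3 most like Bx10 were Bx11, Bx12 and Zm00001d038665 (0.973). Bx11 was most like Zm00001d026412 (0.985), ahead of Bx10 and Bx12. Bx12 was most like Zm00001d018811 (0.985), then Bx11 and Zm00001d027948 (0.979).

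Bx14 was most like Zm00001d024234 (0.973), Zm00001d024014 (0.944) and Zm00001d023984 (0.919). Zm00001d024234 had 517 ± 90.7 CPM in infested B96, 139 ± 32.4 CPM in the infested B73xB96 F1 and at most 1.38 CPM on average in any other group. Zm00001d024014 had 133 ± 28.7 CPM in infested B96 and 166 ± 47.1 CPM in the infested F1, and Zm00001d023984 15.4 ± 7.94 and 4.74 ± 1.05 CPM. All 3 were thus high in the same 2 of 12 groups as Bx14. By Spearman correlation, which weighs the many near-0 libraries by rank, only Zm00001d024234 of these 12 nearest pairs was again among the nearest 3.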

How the data were processed

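Leaf RNA was poly(A)-selected and sequenced as stranded libraries, per the labels' protocols. The deposited table holds raw read counts that the authors made for each feature in each library. STAR 2.5.3a, HTSeq 0.9.1 and the build B73 RefGen_v4 are named in the submitters' processing notes. The options used for counting are not given in the sources here. Summary lines for reads not assigned to a gene held 12.7 to 28% of reads per library and were left out of the totals and the fits.

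Each experiment's 24 libraries were fitted apart with edgeR 4.0.16 in R 4.3.3 (TMM, filterByExpr with a minimum count of 10, group means, quasi-likelihood test, Benjamini-Hochberg over all genes at 0.05), and the 16 B73 libraries together. The script was tested on simulated data with smaller changes in genes of higher counts. That test did not cover near-empty control groups. SE was taken as the log2 fold change over the square root of F, and intervals of differences are 95% normal intervals. These are narrower than the quasi-likelihood test implies with few libraries, so they can exclude 0 where its p exceeds 0.05. The filter left 22569, 22572 and 21017 genes. Libraries of the same run of 6 library codes deviated together on the median but not in every pair, and the main fit used no block. The lowest chi-square per gene between libraries of a group was 5.13, so none was taken for a copy of another. Alternatives were median-of-ratios size factors, no filter, DESeq2 1.42.0, a replicate block, only the groups compared, and leaving out each library. Likeness used log2 CPM with a prior count of 2 over features with a mean of at least 1 CPM.

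Named are the 4 genes in every comparison and, for each, the 3 features with the highest Pearson correlation. The genes and comparisons were chosen with earlier results of these data known. Gene lengths, sequences, other pathway genes and cell type markers are not used here.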

Additional observations from a re-analysis of the deposited data

Results flagged for a closer look

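Each gene was examined in each group of 4 libraries for a library far from the others. Of 43 such sets with counts, which share libraries between genes, 7 held one. The rate of about 1 in 20 that chance gives does not hold for counts this close to 0. In 5 of them that library held 1 to 4 counts and the others none, which marks any such group by construction. These were Bx10 in the B73xB75 F1 control replicate 4 (0.0620 CPM) and in B73 control replicate 4 (0.0681 CPM), Bx12 in B96 control replicate 4 (0.0844 CPM), Bx14 in B75 control replicate 1 (0.0792 CPM) and Bx14 in B75 infested replicate 4 (0.280 CPM). Bx12 in the B73xB96 F1 control replicate 3 was lower than its group, at 0.0603 CPM from 1 count. Bx14 in B96 control replicate 2 was higher than its group, at 1.05 CPM from 16 counts against 0 to 2 in the others.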

How the results depend on the processing

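Of 90 tested values of the 4 genes, 55 kept their direction and their side of the threshold under every alternative run, as did 20 of the 21 mite responses, Bx14 in B73 being the exception. Over all alternatives 2457 of 2541 comparisons were unchanged. For each value that changed, the cause was not tested, and the values below are log2 differences.

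Under DESeq2 calls were gained for Bx14 in the B73 response (4.40), Bx12 in B96 minus B73 controls (-2.55), Bx10 and Bx11 in B75 minus B73 controls (-2.89 and -1.29), Bx10 in the B73xB96 F1 minus mid-parent controls (2.77), and differences of response of Bx11 and Bx12 in B96 minus B73 (2.53 and 3.98), Bx12 in F1 minus B96 (-3.44), Bx10 and Bx11 in B75 minus B73 (4.05 and 1.68) and Bx11 in the B73xB75 F1 minus B73 (2.15). Signs turned, for values that did not pass, in Bx14 F1 minus mid-parent controls (-0.31 by DESeq2, -0.019 with median-of-ratios size factors, -0.0040 with the replicate block), in Bx10 F1 minus B96 infested (0.026 without a filter, 0.030 with only the groups compared) and in the Bx12 difference of B73 responses between experiments (3.5e-04 without a filter, 0.036 with the block). With only the groups compared, Bx12 in F1 minus B73 infested was lost (0.98).

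The replicate numbers mark runs of 6 library codes, and the labels speak of a block layout without tying the numbers to it. Deviations of libraries of the same run correlated at -0.179 to 0.497 (median 0.118) in the B96 experiment and -0.271 to 0.470 (median 0.115) in the B75 experiment. In these, 16 of 24 and 17 of 24 libraries correlated best with their own run, a hint from the data. For libraries of different groups and different runs the medians were -0.041 in the B96 and -0.031 in the B75 experiment. Deviations are taken from group means, so positive values within runs lower those between runs, and these medians are no independent baseline. With the block, calls were gained for Bx12 and Bx14 in F1 minus B96 infested (-0.57 and -0.88), Bx11 in B75 minus B73 controls (-1.28), Bx11 in B73xB75 F1 minus B73 infested (0.49) and the Bx11 difference of responses of B75 and B73 (1.70). The block changed no other call of the 4 genes, and moved the count of genes whose F1 response differed from B73 in the B96 experiment from 34 to 65.

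Leaving out each library gave these ranges in the B96 experiment. For B96 minus B73 controls they were -1.68 to 0 for Bx10, -1.62 to 0.047 for Bx11, and 2.85 to 5.73 for Bx14. For infested leaves they were 0.66 to 1.17 for Bx12 F1 minus B73, -0.18 to 0.21 for Bx10 and -1.07 to -0.47 for Bx14 F1 minus B96, and 0.57 to 0.83 for Bx10 F1 minus mid-parent. For F1 minus mid-parent controls they were 2.38 to 3.77 for Bx10, -0.83 to 0.33 for Bx11 and -0.89 to 1.26 for Bx14. Differences of response were 1.44 to 3.12 for Bx10, 2.08 to 3.72 for Bx11 and 3.02 to 5.53 for Bx12 in B96 minus B73, -0.25 to 0.94 for Bx12 F1 minus B73, -1.63 to 0.16 for Bx11 F1 minus B96 and -0.55 to 2.83 for Bx14 F1 minus B96.

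In the B75 experiment the ranges were -3.89 to -2.58 for Bx10 and -1.87 to -0.85 for Bx11 in B75 minus B73 controls, 0.65 to 1.36 for Bx10 in B75 minus B73 infested, -0.22 to 0.084 for Bx10, 0.38 to 0.64 for Bx11 and -0.67 to -0.34 for Bx12 in F1 minus B73 infested, and -1.41 to -0.71 for Bx10 in F1 minus B75 infested. Differences of response ranged from 3.74 to 5.05 for Bx10, 1.26 to 2.28 for Bx11 and -1.43 to 0.38 for Bx12 in B75 minus B73, -0.11 to 1.03 for Bx12 in F1 minus B73 and -0.17 to 1.15 for Bx11 in F1 minus B75. F1 minus mid-parent controls ranged from -1.78 to 0.25 for Bx10 and -0.78 to 0.038 for Bx12. The Bx12 difference of B73 responses between experiments ranged from -0.80 to 0.68.

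Counts of all genes called moved by over 1.5 times under at least 1 alternative for 8 comparisons, with these ranges beside the main count. The F1 response differed from B73 for 34 (19 to 162) genes in the B96 and 198 (128 to 419) in the B75 experiment, and from the other parent for 2023 (1221 to 2793) and 556 (201 to 1360). The B75 response differed from B73 for 2077 (1271 to 2689), and F1 controls departed from the mid-parent for 4474 (2935 to 5256) in the B75 experiment. B73 differed between experiments for 0 (up to 6) genes in the response and 73 (0 to 696) in infested leaves. Depth limits every value that rests on control leaves, where no library held more than 17 counts of a member.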
